A study of Homo sapiens with 6 samples.

Results

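The genes described here are 47 genes of mitosis and the kinetochore, kinesin motors other than CENPE left out, taken by gene symbol from a table of read counts for 23250 genes. RNA sequencing gave their transcript levels in OCI-LY1 cells, a human line derived from a lymphoma of the diffuse large B cell type. In the mutant rescue, siRNA against BCL6 was followed by expression of BCL6 mutated in its RD2 repression domain from an introduced copy. In the wild-type rescue, the same siRNA was followed by expression of wild-type BCL6. Each rescue had 3 libraries, and in total 26298456 to 26966183 counts were held by a mutant rescue library, against 26477404 to 27574867 by a wild-type rescue library. BCL6 represses transcription and is needed to form germinal centres. All libraries carried the siRNA and a rescue, so cells with no rescue and untreated cells were not compared, and the sources used here name neither the vector nor its promoter. BCL6 itself measured 529, 511 and 519.5 CPM (read counts scaled to the TMM-adjusted library size) in the mutant rescue libraries, against 696, 651 and 689 CPM in the wild-type rescue libraries. Its log2 fold change was -0.38 (SE 0.032; edgeR quasi-likelihood test, adjusted p = 7.90e-10), and reads of the cell's own and the introduced copy were not separated. An effect of the mutation and one of this difference in BCL6 transcript cannot be told apart. Whether each library had its own culture is not in the labels. The p-values therefore cover the spread between libraries, which may be technical.

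In mitosis, cyclins A and B with the kinase CDK1 drive the cell into division, the kinetochore ties each centromere to spindle microtubules, and the spindle checkpoint holds back the anaphase-promoting complex until all chromosomes are attached. Securin is then degraded and cohesin cleaved, the sister chromatids part, and the spindle midzone directs the cut between the daughter cells. Most of the genes are transcribed late in the cell cycle, under the MuvB complex with MYBL2 and FOXM1, through promoter elements known as the cell cycle genes homology region (CHR) and CCAAT boxes. Germinal centre B cells and the lymphomas that arise from them divide quickly. The 47 genes were divided by role into 10 cyclin and kinase genes, 11 checkpoint and anaphase genes, 12 kinetochore and centromere genes, 10 cytokinesis and spindle genes, and 4 regulators and chromosome proteins. The line expressed B cell markers: CD79A had 17018 to 17585 raw counts in the mutant rescue and 15780 to 16979 in the wild-type rescue, and PAX5 had 7043 to 7510 in the mutant rescue and 6064 to 6131 in the wild-type rescue. MS4A1 had 2754 to 2940 raw counts in the mutant rescue and 15512 to 15908 in the wild-type rescue, and CD22 had 9598 to 10226 in the mutant rescue and 12892 to 14499 in the wild-type rescue. Of the 5 T cell markers, 3 had 0 counts in every library, and no marker of T cells, NK cells or stroma had more than 13 counts in any library. The summed level of 5 myeloid markers was 2.97 to 4.37 CPM in the mutant rescue and 2.04 to 2.61 CPM in the wild-type rescue, scaled by library size alone, and its part in the results was not tested.

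Promoters of the genes are shown first, because genes of this kind are known to share elements near the transcription start. RefSeq windows (assembly GRCh38.p14) from 250 bases before to 50 bases after the start were available for 37 of the 47 genes. The letters TTTGAA, the common form of the CHR, were present on either strand in 23 of 37 windows (62.2%), against 9.91% of the windows of 9511 tested genes and 15.2% of 35093 windows in all. They began within the 50 bases before the start in 13 of 37 windows (35.1%), against 1.54% for tested genes. CCAAT was found in 29 of 37 windows (78.4%), against 37.3% for tested genes, and the E2F-type letters GGCGGGA in 13 (35.1%), against 25.5%. The letters TTCCTNGAA, a form of the BCL6 motif in which N is any base, were found in 0 of 37 windows, against 0.925% for tested genes, and this says only that these letters are not in these windows. The windows of CENPA and BUB1, the genes with the highest fold changes, and of HMMR and CDK1, which did not pass the test, are printed 5′ to 3′ on the coding strand. Capitals mark TTTGAA and a variant of the CHR, TTCGAA, which was added to the search after the sequences were seen and occurred in 3 of 37 windows (8.11%), against 1.84% for tested genes.
CENPA, chr2:26785806-26786105, plus strand: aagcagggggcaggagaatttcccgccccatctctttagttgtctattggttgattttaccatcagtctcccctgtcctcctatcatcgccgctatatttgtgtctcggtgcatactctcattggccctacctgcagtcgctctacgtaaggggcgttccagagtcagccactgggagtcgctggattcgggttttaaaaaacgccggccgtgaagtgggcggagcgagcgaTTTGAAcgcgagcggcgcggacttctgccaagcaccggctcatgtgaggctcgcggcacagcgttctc
BUB1, chr2:110678014-110678313, minus strand: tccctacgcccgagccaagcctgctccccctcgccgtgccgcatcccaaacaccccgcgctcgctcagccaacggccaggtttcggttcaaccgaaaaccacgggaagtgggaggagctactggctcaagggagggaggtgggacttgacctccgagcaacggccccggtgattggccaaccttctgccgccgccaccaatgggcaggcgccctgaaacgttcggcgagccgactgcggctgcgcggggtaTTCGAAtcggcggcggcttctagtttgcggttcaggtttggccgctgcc
HMMR, chr5:163460382-163460681, plus strand: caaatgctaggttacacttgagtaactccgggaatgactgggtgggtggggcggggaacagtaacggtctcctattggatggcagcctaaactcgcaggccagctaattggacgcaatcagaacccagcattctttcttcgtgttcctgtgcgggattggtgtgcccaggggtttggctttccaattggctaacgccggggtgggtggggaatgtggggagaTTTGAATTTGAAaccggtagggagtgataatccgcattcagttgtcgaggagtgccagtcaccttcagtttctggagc
CDK1, chr10:60778081-60778380, plus strand: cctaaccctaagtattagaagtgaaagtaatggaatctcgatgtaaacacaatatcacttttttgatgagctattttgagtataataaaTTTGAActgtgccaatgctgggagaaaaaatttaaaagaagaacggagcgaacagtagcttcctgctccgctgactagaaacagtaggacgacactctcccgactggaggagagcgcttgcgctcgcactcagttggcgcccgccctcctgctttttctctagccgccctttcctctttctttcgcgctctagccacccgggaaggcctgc
The CENPA match began at position -18 from the start, the pair in HMMR at -28 and -22, the CDK1 match at -161, and the BUB1 variant at position 2. Genes with and without TTTGAA both rose for the most part. The 23 genes with it comprised 18 that rose, 1 that fell and 4 that missed the threshold, with a median log2 fold change of 0.33. Of the 14 without it, 13 rose and 1 did not pass, with a median of 0.46. Of 25 genes with TTTGAA or TTCGAA, 20 rose, 1 fell and 4 did not pass, with a median of 0.33. Of the 12 with neither, 11 rose and 1 did not pass, with a median of 0.46. Among all tested genes 35.4% were called higher and 34.8% lower (edgeR, adjusted p under 0.05). Matches are a description of letters and not of bound sites. All motifs were searched on both strands, and none of them contains another.

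Transcripts of most of the mitosis genes were more abundant in the mutant rescue. All 47 genes were tested: 39 rose, 2 fell and 6 missed the threshold of 0.05 for the adjusted p (edgeR quasi-likelihood test with Benjamini-Hochberg adjustment over 12406 genes). Among all tested genes 70.1% were called, 35.4% as higher and 34.8% as lower. Among the 7452 tested genes whose mean level lay within the range of the 47, from 20.3 to 1106 CPM, 35.7% were higher and 40.6% lower. The median log2 fold change was 0.34 over the 47 genes and 0.01 over all tested genes. Changes were modest, from -0.16 for TTK to 1.09 for CENPA, and 4 genes rose at least 1.5-fold, as did 12.7% of all tested genes. When edgeR's glmTreat asked for more than 1.2-fold, 27 of the 47 rose and 0 fell, where 19.2% of all tested genes rose and 17.7% fell. The 3 mutant libraries lay above the 3 wild-type libraries for 39 genes, as they did for 36.8% of tested genes, and below them for TTK alone, as for 35.6% of tested genes. Summed over the 47 genes the level was 12783, 13099.8 and 12688 CPM in the mutant rescue libraries, against 10281, 10529 and 10398 CPM in the wild-type rescue libraries. The ratio of mean summed levels, mutant over wild-type rescue, was 1.36 for cyclin and kinase genes, 1.24 for checkpoint and anaphase genes, 1.27 for kinetochore and centromere genes, 1.23 for cytokinesis and spindle genes, and 1.15 for regulators and chromosome proteins. In RNA from bulk cells, more cells in mitosis and more transcript per cell cannot be told apart.

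**Figure D1:**
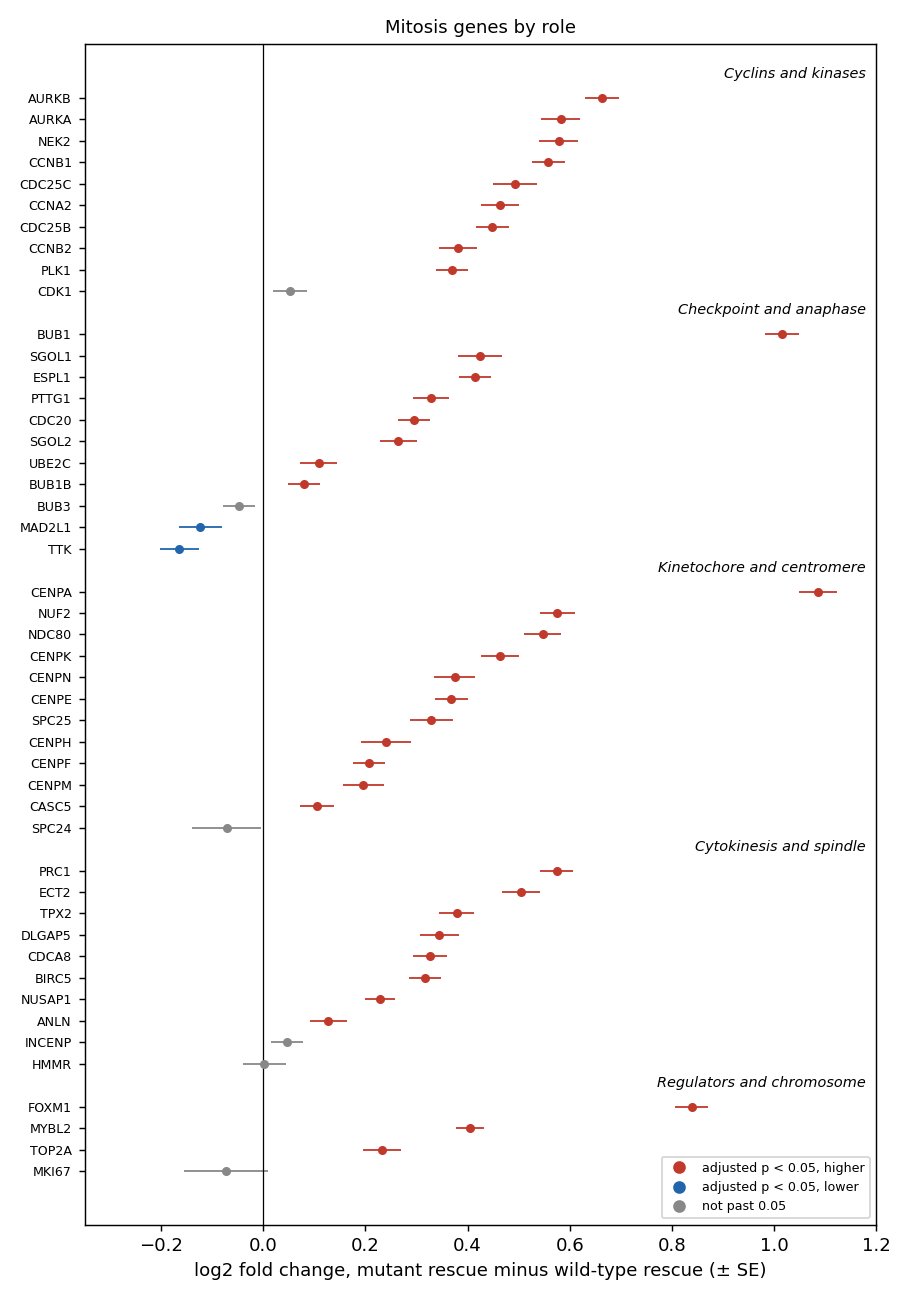
Log2 fold change (mutant rescue minus wild-type rescue, x axis) of each of the 47 genes (y axis) with its SE, grouped by role, from 3 libraries per rescue. Red points passed the test as higher, blue as lower and grey did not pass. Only TTK and MAD2L1 are blue, and CENPA (1.09) and BUB1 (1.02) lie farthest to the right.

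The cyclin and kinase genes rose together except for CDK1. Of 10, 9 rose and 1 did not pass the test, with a median log2 fold change of 0.48, and the 9 also passed against 1.2-fold. Among all tested genes 35.4% were higher, and 19.2% were higher against 1.2-fold. AURKB, the kinase of the chromosomal passenger complex, had 173, 169 and 169 CPM in the mutant rescue libraries, against 107, 108 and 108 CPM in the wild-type rescue libraries (1.58-fold; log2 0.66, SE 0.033; edgeR, adjusted p = 1.82e-13). CCNB1, the cyclin that activates CDK1 for entry into mitosis, had 420.2, 446 and 419.8 CPM in the mutant rescue, against 289, 295 and 291 CPM in the wild-type rescue (1.47-fold; log2 0.56, SE 0.032; edgeR, adjusted p = 2.34e-12). In both genes the groups were far apart compared with the spread of a few percent within each. NEK2, a kinase of centrosome separation, had 109, 117 and 111 CPM in the mutant rescue, against 74.1, 76.3 and 75.0 CPM in the wild-type rescue (log2 0.58, SE 0.038; edgeR, adjusted p = 2.004e-11). AURKA, which acts in centrosome maturation and spindle assembly, had 217, 232 and 211 CPM in the mutant rescue, against 143, 153 and 144 CPM in the wild-type rescue (log2 0.58, SE 0.038; edgeR, adjusted p = 2.07e-11). Mutant library 2 was the highest of its group for NEK2 and AURKA, and the groups stayed apart. The phosphatase genes CDC25B and CDC25C, whose products remove inhibitory phosphates from CDKs, rose by 0.45 and 0.49 on the log2 scale. CCNA2, CCNB2 and the polo-like kinase gene PLK1 rose by 0.46, 0.38 and 0.37.

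CDK1, the catalytic partner of cyclins A and B, had 238, 251 and 239.7 CPM in the mutant rescue libraries, against 230.2, 239 and 234 CPM in the wild-type rescue libraries. The groups overlapped, and the log2 fold change of 0.05 had a 95% interval of -0.01 to 0.12 (edgeR, adjusted p = 0.156). With libraries scaled by size alone, CDK1 passed the test at 0.08 (adjusted p = 0.0166). To set CDK1 beside its cyclin, the log2 ratio of CDK1 to CCNB1 counts was taken within each library. It averaged -0.82 ± 0.010 in the mutant rescue and -0.31 ± 0.012 in the wild-type rescue (SD, n = 3 each; exact permutation test, two-sided, p = 0.1, the smallest that 3 against 3 allows; adjusted p = 0.11 over 11 such pairs). All 11 pairs, including those given further on, were chosen after the values were seen, and their p-values support no call. Any pair whose groups do not overlap gets p = 0.1 by this permutation test.

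**Figure D2:**
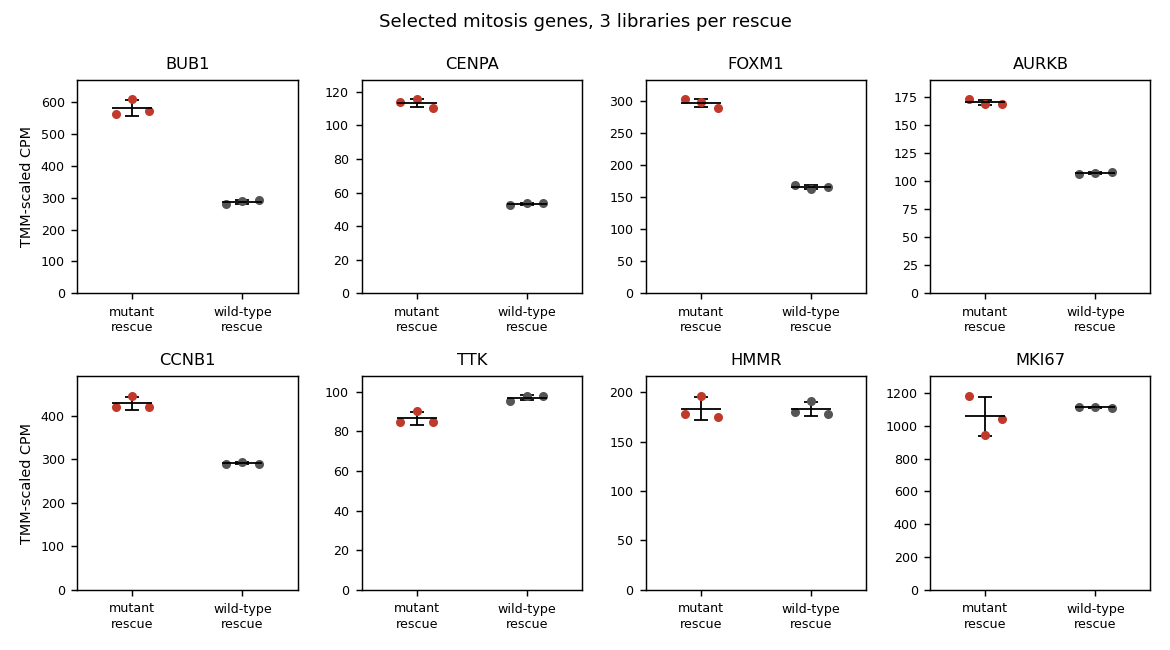
TMM-scaled CPM (y axis, from 0) of 8 genes in the 3 mutant rescue libraries (left, red) and 3 wild-type rescue libraries (right, grey), with mean and SD. BUB1, CENPA, FOXM1, AURKB and CCNB1 do not overlap between rescues, TTK is lower in every mutant library, HMMR overlaps, and MKI67 spreads from 947 to 1184 in the mutant rescue and from 1111 to 1116 in the wild-type rescue.

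Checkpoint and anaphase genes were the most divided of the groups. Among 11, 8 rose, 2 fell and BUB3 missed the threshold, with a median log2 fold change of 0.26. Of all tested genes 35.4% were higher and 34.8% lower. BUB1, a kinase that marks centromeric chromatin and takes part in checkpoint signalling, had 562, 609 and 573 CPM in the mutant rescue libraries, against 279.5, 290.4 and 292 CPM in the wild-type rescue libraries (2.02-fold; log2 1.02, SE 0.034; edgeR, adjusted p = 3.95e-16). The lowest mutant library lay far above the highest wild-type library. ESPL1, the protease separase that cuts cohesin, had 187, 184 and 186 CPM in the mutant rescue, against 137, 141 and 139 CPM in the wild-type rescue (log2 0.41; edgeR, adjusted p = 2.59e-10). SGOL1 (shugoshin 1, now SGO1), which shields centromeric cohesin, had 69.7, 72.3 and 71.6 CPM in the mutant rescue, against 51.4, 56.2 and 51.6 CPM in the wild-type rescue (log2 0.42; edgeR, adjusted p = 2.51e-08). CDC20, the activator of the anaphase-promoting complex, had 256, 262 and 265 CPM in the mutant rescue, against 212, 216 and 209.7 CPM in the wild-type rescue (log2 0.30; edgeR, adjusted p = 4.10e-08). For these 3 genes the groups did not overlap. PTTG1 (securin, the inhibitor of separase) and SGOL2 rose by 0.33 and 0.26. PTTG1 has a near-identical copy, PTTG3P, which held 616 counts on average in the table, so its value is uncertain.

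The remaining checkpoint genes differed little between the rescues, and 2 of them fell. TTK (MPS1), the kinase at the head of the checkpoint, had 84.6, 90.5 and 84.8 CPM in the mutant rescue libraries, against 95.5, 97.8 and 98.0 CPM in the wild-type rescue libraries (log2 -0.16, SE 0.038; edgeR, adjusted p = 6.44e-04). Every mutant library was below every wild-type library. MAD2L1, which encodes the MAD2 protein that inhibits CDC20, had 87.5, 97.0 and 88.0 CPM in the mutant rescue, against 97.0, 102 and 97.4 CPM in the wild-type rescue (log2 -0.12, SE 0.042; edgeR, adjusted p = 0.0138). The groups met at 97.0 CPM. Its call was lost without mutant library 1 (-0.10; adjusted p = 0.0633), mutant library 3 (-0.10; 0.0730) or wild-type library 2 (-0.09; 0.0792). BUB3, a scaffold for BUB1 and BUBR1, had 348, 367 and 349.8 CPM in the mutant rescue, against 366, 369.9 and 366 CPM in the wild-type rescue, and did not pass (log2 -0.05; edgeR, adjusted p = 0.172). Without mutant library 2 it passed as lower (-0.07; adjusted p = 0.00770), and likewise after removal of trends with GC content and length, an alternative added after the values were seen (-0.13; adjusted p = 8.95e-05). BUB1B, which encodes BUBR1, and the ubiquitin-conjugating gene UBE2C rose by 0.08 and 0.11, and both calls were lost without wild-type library 1 (adjusted p = 0.0737 and 0.0854). The BUB1B call was also lost with no filter on low counts (adjusted p = 0.0788), with DESeq2 (0.0540) and with GC and length trends removed (0.328). The log2 ratio of BUB1B to BUB1 averaged -0.96 ± 0.035 in the mutant rescue and -0.03 ± 0.021 in the wild-type rescue (SD, n = 3 each; exact permutation p = 0.1). The BUB3 to BUB1 ratio averaged -0.71 ± 0.019 in the mutant rescue and 0.35 ± 0.032 in the wild-type rescue, by the same test and p. The 3 genes whose proteins meet BUB1 at the kinetochore, BUB1B, BUB3 and CASC5, thus had log2 fold changes of 0.08, -0.05 and 0.11, where BUB1 had 1.02.

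Of 12 kinetochore and centromere genes, 11 rose and 1 did not pass the test, with a median log2 fold change of 0.35. Among all tested genes 35.4% were higher. CENPA, the histone H3 variant that marks the centromere, had 114, 116 and 111 CPM in the mutant rescue libraries, against 52.8, 53.7 and 53.7 CPM in the wild-type rescue libraries (2.12-fold; log2 1.09, SE 0.038; edgeR, adjusted p = 6.36e-16). The groups were far apart. Annotated CENPA exons share 138 bases with SLC35F6 on the same strand, a gene that fell by 0.41 on the log2 scale (edgeR, adjusted p = 4.10e-07). Genes of the constitutive centromere network moved less, with CENPK at 0.46, CENPN at 0.37, CENPH at 0.24 and CENPM at 0.20, and all 4 rose. CENPN shares 457 exon bases with CMC2 on the opposite strand, and CMC2 rose by 0.65 (edgeR, adjusted p = 2.19e-10). CENPK had 86.1, 86.6 and 87.9 CPM in the mutant rescue, against 63.9, 62.9 and 62.3 CPM in the wild-type rescue (edgeR, adjusted p = 5.85e-10). The kinetochore motor gene CENPE and CENPF, a large protein of the outer kinetochore, rose by 0.37 and 0.21. CASC5 (KNL1), the scaffold that recruits BUB1 and BUB3, rose by 0.11 (edgeR, adjusted p = 0.00912), and with GC and length trends removed it did not pass (0.02; adjusted p = 0.585).

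The NDC80 complex, a rod of 4 proteins that binds microtubules, was uneven. NDC80 had 124, 132 and 127 CPM in the mutant rescue libraries, against 86.1, 87.9 and 87.6 CPM in the wild-type rescue libraries (log2 0.55, SE 0.036; edgeR, adjusted p = 2.44e-11). NUF2, its partner in the microtubule-binding end of the rod, had 138, 140.4 and 140.3 CPM in the mutant rescue, against 91.8, 95.5 and 93.9 CPM in the wild-type rescue (log2 0.58, SE 0.034; edgeR, adjusted p = 3.63e-12). SPC25, in the end that faces the centromere, had 77.4, 81.8 and 75.6 CPM in the mutant rescue, against 64.0, 62.5 and 60.5 CPM in the wild-type rescue (log2 0.33, SE 0.042; edgeR, adjusted p = 5.51e-07). SPC24, the partner of SPC25, had 20.6, 19.3 and 19.7 CPM in the mutant rescue, against 22.1, 18.6 and 21.8 CPM in the wild-type rescue, with overlapping groups (log2 -0.07, 95% interval -0.20 to 0.06; edgeR, adjusted p = 0.352). Thus 3 of the 4 rose, where 35.4% of all tested genes were higher, and a difference in SPC24 was not detectable. The log2 ratio of SPC24 to NDC80 averaged -2.68 ± 0.094 in the mutant rescue and -2.07 ± 0.15 in the wild-type rescue, and that of NUF2 to NDC80 averaged 0.13 ± 0.040 in the mutant rescue and 0.10 ± 0.013 in the wild-type rescue (SD, n = 3 each; exact permutation p = 0.1 and 0.4; adjusted p = 0.11 and 0.4). Levels were also divided by the length of the longest protein-coding GENCODE v29 transcript. SPC24 was the lowest of the 4, at 8.57 ± 0.28 CPM per kb in the mutant rescue and 9.005 ± 0.83 in the wild-type rescue. NDC80 measured 58.7 ± 2.0, NUF2 71.0 ± 0.56 and SPC25 57.8 ± 2.3 CPM per kb in the mutant rescue. In the wild-type rescue NDC80 measured 40.2 ± 0.46, NUF2 47.6 ± 0.94 and SPC25 46.0 ± 1.3 CPM per kb (SD, n = 3 for each gene and rescue). NUF2 had the highest mean of the 4 in both rescues, but in the wild-type rescue its libraries overlapped those of SPC25.

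**Figure D3:**
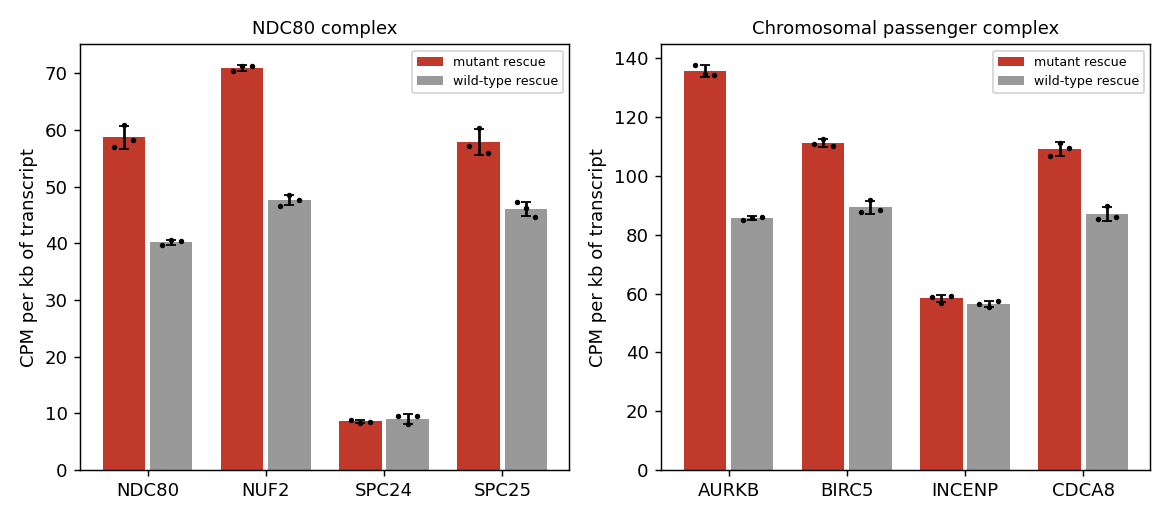
CPM per kb of transcript (y axis, from 0) for the 4 NDC80 complex genes (left panel) and the 4 chromosomal passenger genes (right panel), with mutant rescue in red to the left of wild-type rescue in grey. Bars are means, error bars SD and dots the 3 libraries. SPC24 and INCENP overlap between rescues, and the other 6 genes do not.

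Of 10 cytokinesis and spindle genes, 8 rose and 2 did not pass the test, with a median log2 fold change of 0.32. Among all tested genes 35.4% were higher. PRC1, which bundles microtubules of the spindle midzone, had 247, 251 and 243 CPM in the mutant rescue libraries, against 163, 166 and 169 CPM in the wild-type rescue libraries (log2 0.57, SE 0.032; edgeR, adjusted p = 1.31e-12). ECT2, the exchange factor that activates RHOA for the contractile ring, had 332, 371 and 345 CPM in the mutant rescue, against 241, 251 and 248 CPM in the wild-type rescue (log2 0.50, SE 0.037; edgeR, adjusted p = 1.41e-10). TPX2, a spindle assembly factor that activates AURKA, had 604, 652 and 614 CPM in the mutant rescue, against 464, 498 and 476 CPM in the wild-type rescue (log2 0.38; edgeR, adjusted p = 3.72e-09). For all 3 the groups did not overlap. DLGAP5, which stabilizes kinetochore fibres, rose by 0.34 and the microtubule-binding gene NUSAP1 by 0.23. ANLN, which encodes the ring scaffold anillin, rose by 0.13 (edgeR, adjusted p = 0.00458), and it did not pass with GC and length trends removed (0.06; adjusted p = 0.0847). HMMR, a spindle protein and hyaluronan receptor, had 178, 196 and 175 CPM in the mutant rescue, against 179.8, 191 and 178 CPM in the wild-type rescue, with a log2 fold change of 0.00 and a 95% interval of -0.08 to 0.08 (edgeR, adjusted p = 0.965). Its sign turned under 8 of the 16 alternatives, and it passed the test in none.

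The chromosomal passenger complex places AURKB at centromeres and the midzone through BIRC5 (survivin), CDCA8 (borealin) and the scaffold INCENP. BIRC5 had 301, 306 and 299 CPM in the mutant rescue libraries, against 238, 249 and 239.7 CPM in the wild-type rescue libraries (log2 0.32, SE 0.031; edgeR, adjusted p = 1.38e-08). CDCA8 had 263, 275 and 270.3 CPM in the mutant rescue, against 210.5, 222 and 213 CPM in the wild-type rescue (log2 0.33, SE 0.033; edgeR, adjusted p = 1.56e-08). INCENP had 234, 225 and 235 CPM in the mutant rescue, against 224, 220.0 and 228 CPM in the wild-type rescue, and did not pass (log2 0.05, 95% interval -0.02 to 0.11; edgeR, adjusted p = 0.202). The INCENP groups overlapped, while those of the other 3 genes did not. INCENP passed as higher with scaling by library size alone (0.07; adjusted p = 0.0420) and without mutant library 2 (0.06; adjusted p = 0.0361). The log2 ratio of INCENP to AURKB averaged 0.44 ± 0.032 in the mutant rescue and 1.06 ± 0.025 in the wild-type rescue, and that of BIRC5 to AURKB averaged 0.83 ± 0.028 in the mutant rescue and 1.17 ± 0.032 in the wild-type rescue (SD, n = 3 each; exact permutation p = 0.1 for both). Per kb of transcript INCENP was the lowest of the 4 in both rescues, at 58.3 ± 1.3 CPM per kb in the mutant rescue and 56.5 ± 0.95 in the wild-type rescue. AURKB was the highest in the mutant rescue, at 136 ± 1.9 CPM per kb. In the wild-type rescue it was close to BIRC5 and CDCA8, and the 3 lay between 85.7 and 89.4 CPM per kb. Without division by length AURKB had the lowest mean of the 4, at 170 CPM in the mutant rescue and 107 CPM in the wild-type rescue. The order per kb thus rests on annotated lengths, 1.25 kb for AURKB and 3.96 kb for INCENP, and the transcript forms expressed were not determined.

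Among regulators and chromosome proteins, 3 of 4 rose, where 35.4% of all tested genes were higher. FOXM1, the transcription factor of late cell cycle genes, had 302, 297 and 289 CPM in the mutant rescue libraries, against 168, 162 and 166 CPM in the wild-type rescue libraries (1.79-fold; log2 0.84, SE 0.032; edgeR, adjusted p = 3.05e-15). FOXM1 shares 781 exon bases with ITFG2 on the opposite strand, and ITFG2 rose by 0.14 (edgeR, adjusted p = 0.00898). The strand setting of the counts is not given, and the part of its reads in the FOXM1 value was not tested. MYBL2 (B-MYB), which joins the MuvB complex in S phase, had 729.8, 734 and 733 CPM in the mutant rescue, against 557, 549 and 553 CPM in the wild-type rescue (log2 0.40, SE 0.028; edgeR, adjusted p = 4.75e-11). TOP2A, the topoisomerase that untangles sister chromatids, had 1145, 1276 and 1165 CPM in the mutant rescue, against 987, 1044 and 1020.5 CPM in the wild-type rescue (log2 0.23, SE 0.037; edgeR, adjusted p = 1.92e-05). The groups stayed apart in all 3. MKI67, the Ki-67 protein that coats mitotic chromosomes and is used to score proliferation, had 1184, 947 and 1045 CPM in the mutant rescue, against 1116, 1113 and 1111 CPM in the wild-type rescue (log2 -0.07, SE 0.083; edgeR, adjusted p = 0.469). The mutant libraries lay on both sides of the wild-type libraries, with a coefficient of variation of 11.3% in the mutant rescue and 0.247% in the wild-type rescue. Without mutant library 1, MKI67 passed as lower (log2 -0.16; edgeR, adjusted p = 3.25e-04).

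**Figure D4:**
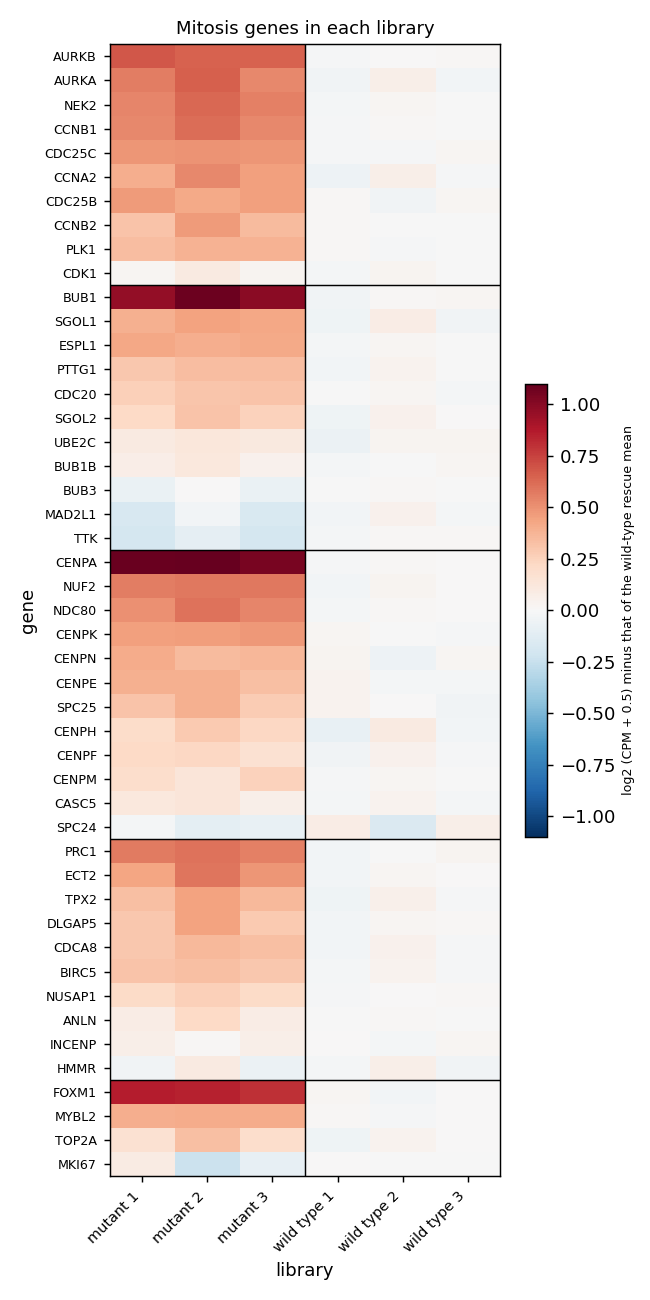
Log2 (CPM + 0.5) of each of the 47 genes (rows, grouped by role) in each library (columns, mutant rescue left), minus that of the wild-type rescue mean; red is higher and blue lower. Red fills the mutant columns for most genes, mutant library 2 has the highest value of the 3 for 35 genes, and MKI67 is red in mutant library 1 and blue in libraries 2 and 3.

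Spread within the rescues was small for most of the genes. The median coefficient of variation over the 47 genes was 2.45% in the mutant rescue and 2.003% in the wild-type rescue. Over all tested genes it was 4.82% in the mutant rescue and 3.66% in the wild-type rescue. The lowest mean level was 0.267 CPM among all tested genes and 20.3 CPM among the 47, and spread at matched level was not compared. Mutant library 2 was the highest of its group for 35 of the 47 genes, against 44.8% of all tested genes, and wild-type library 2 for 28, against 36.2%. By library, the median log2 ratio of the 47 genes to the wild-type mean was 0.31, 0.38 and 0.33 in mutant libraries 1, 2 and 3. Without mutant library 2, 40 genes rose and 3 fell, with a median of 0.32. The transcripts of the 47 genes had a median GC content of 43.2% and a median length of 2.70 kb, against 48.5% and 3.35 kb for tested genes. With trends in GC content and length removed, 36 rose and 3 fell. Exons of 16 of the 47 genes overlap another annotated gene, and for 10 of them that gene was tested here.

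Other genes of mitosis were taken from 6 lists that hold none of the 47. The 98 tested comprised 63 that rose, 17 that fell and 18 that did neither, against 35.4% and 34.8% called higher and lower among all tested genes, with a median log2 fold change of 0.19. All 17 tested spindle and cytokinesis genes rose, with a median of 0.46. The count was 16 with no filter, with DESeq2, with GC and length trends removed, and without mutant library 2, wild-type library 1 or wild-type library 3, and 12 against 1.2-fold. They included GTSE1 (0.63), which acts on spindle microtubules, CIT (0.60), the citron kinase of late cytokinesis, and the tubulin-binding STMN1 (0.50). Of 18 cohesin and condensin genes, 15 rose, 1 fell and 2 did not pass, with a median of 0.20. The condensin genes SMC4 (0.44) and NCAPD3 (0.45) and CDCA5 (0.35), which encodes the cohesin protector sororin, had the smallest p-values there. Among 27 further kinetochore genes, 18 rose and 3 fell, with a median of 0.18. They included HJURP, the chaperone that loads CENPA, at 165 ± 1.44 CPM in the mutant rescue and 109 ± 1.63 CPM in the wild-type rescue (mean ± SD, n = 3 each; log2 0.61, SE 0.033; edgeR, adjusted p = 8.48e-13), and CENPL (0.65) and CENPO (0.53) of the centromere network.

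For genes of the anaphase-promoting complex, of mitotic entry and of MuvB and DREAM, the shares called higher and lower lay near those of all tested genes (35.4% and 34.8%). Of 17 genes for subunits, activators and partners of the anaphase-promoting complex, 5 rose, 6 fell and 6 did not pass, with a median of -0.0014. ANAPC13, a small subunit, had 76.5 ± 3.19 CPM in the mutant rescue and 108 ± 4.92 CPM in the wild-type rescue (mean ± SD, n = 3 each; log2 -0.50, SE 0.042; edgeR, adjusted p = 1.03e-09). The activator gene FZR1 (CDH1) and the inhibitor gene FBXO5 (EMI1) rose by 0.38 and 0.37. Of 10 tested genes that restrain or permit mitotic entry, 4 rose, 4 fell and 2 did not pass, with CDKN3, a phosphatase of CDKs, at 0.58, MASTL, the Greatwall kinase, at 0.31, and its substrate gene ENSA at -0.29. Among 9 MuvB and DREAM genes, 4 rose and 3 fell. The MuvB genes LIN9 and LIN54 rose by 0.42 each, and RBL1, which encodes the pocket protein p107 of the repressive form, fell by 0.38 on the log2 scale (edgeR, adjusted p = 4.95e-08).

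**Figure D5:**
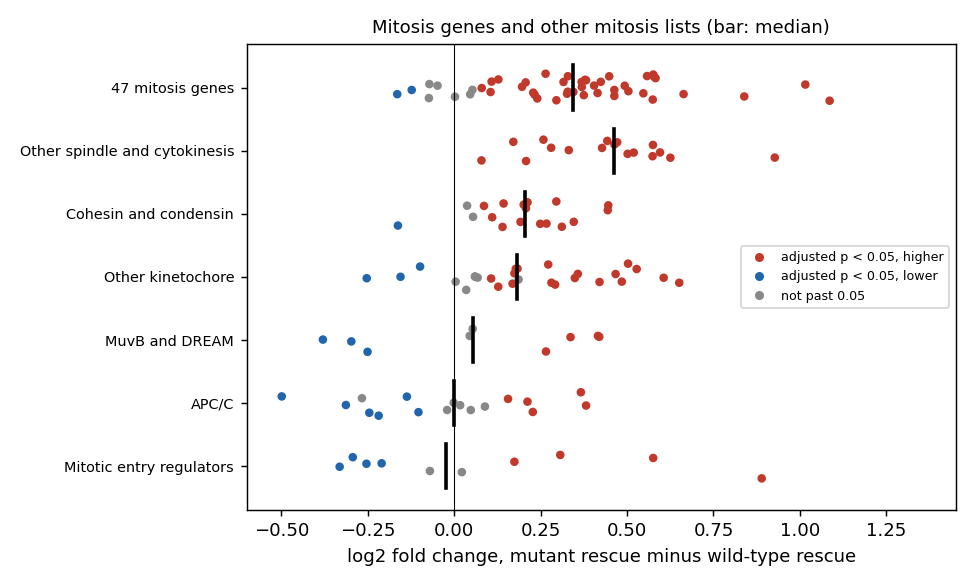
Log2 fold change (mutant rescue minus wild-type rescue, x axis) of the 47 mitosis genes and of the tested genes of 6 other mitosis lists (y axis). Each dot is 1 gene, red where higher, blue where lower and grey where the test was not passed, and black bars are medians, which run from 0.46 in other spindle and cytokinesis genes to -0.02 in genes of mitotic entry.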

How the data were processed

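RNA was measured by sequencing of TruSeq libraries from OCI-LY1 cells, per the labels' protocols. The authors deposited 1 table of raw read counts per gene symbol for 6 libraries. CASAVA 1.8.2, STAR and edgeR and the build hg19 are named in the submitters' processing notes. How reads were counted, on which strand and with what rule for several matches, is not given in the sources used here. Between 0.317% and 0.369% of counts sat in rows whose gene symbol had become a date, and these rows stayed in the library sizes and the fit.

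The counts were tested in R 4.3.3 with edgeR 4.0.16 (filterByExpr, TMM scaling, robust quasi-likelihood test, Benjamini-Hochberg adjustment over 12406 tested genes, threshold 0.05), mutant rescue minus wild-type rescue, 3 libraries each. A fold change has its SE from the edgeR fit, and 95% intervals are 1.96 SE on each side. Alternatives used DESeq2 1.42.0, limma 3.58.1 (voom) and mgcv 1.9.3 (GC and length trends). The procedure was tested on simulated data in which few genes differed. That setting cannot show how it performs where 70.1% of tested genes are called, as here. A count of 3 equals 0.109 to 0.114 CPM, and intervals cover counting and library spread only.

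The genes and lists were chosen with earlier results of these data known. Values in every library are given for genes that fell or did not pass, for up to 4 genes of each group with the smallest p, and for the NDC80 and passenger genes. The 3 genes with the smallest p are named from each other list. GENCODE v29 gave lengths, GC content and exon overlaps. Promoters of 10 of the 47 genes were not used here. Some items are not reported here.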

Additional observations from a re-analysis of the deposited data

How the results depend on the processing

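Across 16 alternatives, 28 of the 47 genes kept their direction and their side of the threshold in each, and of 752 gene comparisons 713 did so. Against 1.2-fold (glmTreat), 2383 of all tested genes were higher and 2202 lower; of the 47 genes 0 were lower, and in the checkpoint group 4 were higher and 0 lower, in the kinetochore group 6 higher. By that test 2 anaphase-promoting complex genes were higher and 1 lower, 9 further kinetochore genes higher and 0 lower, 3 cohesin and condensin genes higher and 0 lower, 2 mitotic entry genes higher and 0 lower, and 2 MuvB and DREAM genes higher and 1 lower; a minimum change asks for more than a difference from 0. HMMR turned negative with RLE scaling (-0.0037), upper-quartile scaling (-0.00095), no filter (-0.0066), DESeq2 (-0.0037), without mutant library 2 (-0.051), without wild-type library 1 (-0.01), without wild-type library 3 (-0.01), and with GC and length trends removed (-0.060), as did INCENP in the last (-0.029). Leaving out each library in turn, HMMR ran from -0.051 to 0.040. Neither gene passed where it turned, and the cause was not tested. That last alternative was chosen after seeing the data and moved the median of all tested genes to -0.039, with 3997 higher and 5055 lower. Leaving out 1 library at a time gave 37 to 40 of the 47 genes higher and 1 to 3 lower, with 1 to 3 checkpoint genes and 0 to 1 regulators lower. Between the rescues, deviations from the group means correlated at 0.196, 0.239 and -0.0719 for library numbers 1, 2 and 3. These values do not settle whether library numbers pair the rescues, and the main test did not pair them. With the replicate number as a block, 4680 genes were higher and 4605 lower in all, and 39 of the 47 genes were higher and 2 lower. The lowest mean of the 47 genes was 20.3 CPM. Library pairs of each rescue were compared over all genes with at least 20 counts in the pair. The measure was chi-square per degree of freedom, near 1 for counting error alone. It was 1.60 to 3.01 for wild-type pairs and 1.75 for mutant libraries 1 and 3. For mutant library 2 it was 5.47 with library 1 and 4.36 with library 3. Counting error was not separated from the spread between libraries for the 47 genes alone. Limits are the 3 libraries per rescue, 1 cell line, no library without a rescue, the lower BCL6 transcript in the mutant rescue, and a strand setting that is not given.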
